A study of Mus musculus with 12 samples.

Results

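Ccrn4l, Mrap, Crip2, Tango2, Rgcc, Ell2 and Daam1 are 7 of the 19463 genes in the count tables of fetal blood progenitors that lack DNA damage tolerance genes. They were selected on measured values of these same plates, as genes with more RNA in the double mutant than in WT. Their levels by genotype are therefore a description without a test. The tests below use other measures, which are not fully independent of the selection. All 7 were among the 12221 genes with enough counts to be compared between plates. Cells were LSK cells (lineage-negative, Sca-1-positive, c-Kit-positive, the fraction that holds blood stem cells and multipotent progenitors), sorted singly into wells from C57BL/6J fetal livers at embryonic day 18.5 and read by SORT-seq, a plate method that counts mRNA molecules from their 3' ends by unique molecular identifiers (UMIs). The plates were WT (3 plates), homozygous Rev1-/- (3 plates, called Rev1 knockout), homozygous PcnaK164R/K164R (2 plates, called Pcna K164R) and the double homozygote PcnaK164R/K164R;Rev1-/- (4 plates, called double mutant). Nothing in the labels says that plates of a genotype came from separate embryos, so the spread between plates may be technical. No sequencing flow cell held plates of both WT and the double mutant, so their levels cannot be compared within a flow cell.

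PCNA is the sliding clamp of DNA replication, and ubiquitin on the lysine that K164R replaces recruits polymerases that can copy damaged DNA. Rev1 is such a translesion polymerase and a scaffold for others. Klf1 is the erythroid transcription factor that switches on much of the red cell programme, and Cdkn1a encodes p21, the cell cycle inhibitor that p53 induces after DNA damage. The question asked of each of the 7 genes was whether, from one well to the next within a plate, its UMIs went with Klf1 or with Cdkn1a.

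The 7 genes do unrelated work. Ccrn4l (now Noct, chr3:51224447-51251644, + strand) encodes Nocturnin, a rhythmically expressed enzyme of the deadenylase family that acts on NADPH. Tango2 (chr16:18300825-18348103, - strand) encodes a protein named for transport and Golgi organisation, whose loss in people causes metabolic crises. Mrap (chr16:90738207-90749785, + strand) encodes the accessory protein that takes the ACTH receptor to the cell surface. Crip2 (chr12:113140236-113145506, + strand) encodes a LIM domain protein, and Daam1 (chr12:71831078-71992333, + strand) a formin that builds actin filaments downstream of Wnt signals. Ell2 (chr13:75706757-75772364, + strand) encodes an RNA polymerase II elongation factor of the super elongation complex, and Rgcc (chr14:79288756-79301645, - strand) a regulator of the cell cycle reported to bind CDK1. All coordinates are whole protein-coding genes of GRCm38 in the GENCODE annotation, and no gene that overlaps one of them has counts in the tables.

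RefSeq promoter windows (250 bases before to 50 after a start, GRCm38.p6) were at hand for 6 of the 7 genes and were searched on both strands for a GATA site (AGATAA), the CACCC box bound by Klf1 (CCACACCC) and the E-box of the circadian clock (CACGTG). Only Ell2 held a match, a GATA site that begins 191 bases before the RefSeq start of its window, inside the gene as GENCODE gives it. It is shown because the wells described below are marked by erythroid genes, with the site in capitals, for chr13:75707253-75707338 on the + strand:
Ell2: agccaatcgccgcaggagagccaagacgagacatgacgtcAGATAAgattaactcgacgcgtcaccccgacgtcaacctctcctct
Of 32851 promoter windows, 11.2% held the GATA letters, 3.56% the CACCC letters and 7.15% the E-box letters. A match is a string of letters and was not tested as a site.

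Of 4608 wells, 3088 held at least 1000 UMIs and were summed by plate, to between 212938 and 11617420 UMIs. Double mutant replicate 3 is the shallowest plate, with 82 kept wells and 0 to 7 UMIs for each of the 7 genes, and its TMM factor of 0.549 raised its values in CPM (counts scaled to library size) most. The library labelled double mutant replicate 4 goes against its label: Rev1 stood at 13.4 CPM there, inside the WT range of 10.5 to 18.4 CPM, so the values that rest on it most are also given without it. Transcripts of Kit and Ly6a, which encode c-Kit and Sca-1, with those of the blood cell surface genes Cd48 and Ptprc, summed to 145.6 to 601 CPM in the double mutant and to 747 to 1087 CPM in the other plates. The 18 erythroid markers summed to 2074, 2538, 643 and 3659 CPM in double mutant replicates 1 to 4 and to 588 to 1807 CPM elsewhere. Only the shallow replicate 3, with 4 of these markers at 0, overlapped with the other plates. Both sums are in CPM without TMM scaling, and the part of either difference in the levels below was not tested. In plate sums, more cells of a type and more RNA per cell cannot be told apart.

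Ccrn4l was read at 24.0, 19.1 and 21.1 CPM in the 3 WT plates, at 17.8, 19.98 and 22.8 CPM in the Rev1 knockout, at 34.7 and 34.6 CPM in Pcna K164R, and at 70.2, 68.0, 34.7 and 63.3 CPM in the double mutant. Every double mutant plate and both Pcna K164R plates lay above all WT and Rev1 knockout plates. The ratio of means, double mutant to WT, was 2.76. Before scaling, double mutant replicate 3 held 4 Ccrn4l UMIs, or 18.8 CPM, which lies below the WT plates.

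Tango2 was at 22.3, 17.2 and 13.8 CPM in WT, 16.4, 17.7 and 22.6 CPM in the Rev1 knockout, 28.9 and 22.1 CPM in Pcna K164R, and 50.9, 56.5, 43.4 and 56.4 CPM in the double mutant. The WT and single mutant ranges overlapped, and the double mutant lay above them in 4 of 4 plates. Unscaled, replicate 3 held 5 Tango2 UMIs, or 23.5 CPM, which is above WT but below 1 Pcna K164R and 1 Rev1 knockout plate. The double mutant to WT ratio of means was 2.92.

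Mrap was close to absent outside the double mutant, with 1.05, 0.937 and 0 CPM in WT, 0.152, 2.10 and 2.04 CPM in the Rev1 knockout and 4.01 and 3.66 CPM in Pcna K164R. In the double mutant it was at 15.8, 14.5, 0 and 24.3 CPM. Thus 3 of 4 double mutant plates lay above every other plate, and the fourth, replicate 3, held no Mrap UMI.

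Crip2 was at 10.01, 2.81 and 4.72 CPM in WT, 1.82, 3.36 and 6.30 CPM in the Rev1 knockout, 12.2 and 8.08 CPM in Pcna K164R, and 39.2, 41.9, 34.7 and 68.1 CPM in the double mutant. The double mutant plates did not overlap with any other plate, and the ratio of means to WT was 7.86. Daam1, the formin, was at 11.3, 12.2 and 12.3 CPM in WT and lower, at 5.32, 6.52 and 10.4 CPM, in every Rev1 knockout plate. It stood at 13.1 and 10.6 CPM in Pcna K164R and at 18.8, 24.2, 52.1 and 47.0 CPM in the double mutant (unscaled 18.2, 24.1, 28.2 and 48.3 CPM).

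Ell2 was at 31.1, 23.1 and 22.1 CPM in WT, 18.2, 17.5 and 22.4 CPM in the Rev1 knockout, 26.3 and 26.2 CPM in Pcna K164R, and 47.0, 49.2, 60.8 and 70.6 CPM in the double mutant. Rgcc was at 30.3, 34.1 and 42.5 CPM in WT and at 11.5, 15.98 and 27.4 CPM in the Rev1 knockout, again lower in all 3 plates than in any WT plate. In Pcna K164R it was at 27.0 and 47.5 CPM, and in the double mutant at 68.9, 87.1, 52.1 and 175 CPM, the last in replicate 4. Unscaled, replicate 3 held 6 Rgcc UMIs, or 28.2 CPM, below every WT plate. Double mutant to WT ratios of means were 2.23 for Ell2, 2.69 for Rgcc and 2.97 for Daam1, and 2.06, 1.95 and 2.65 without replicate 4.

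**Figure D1:**
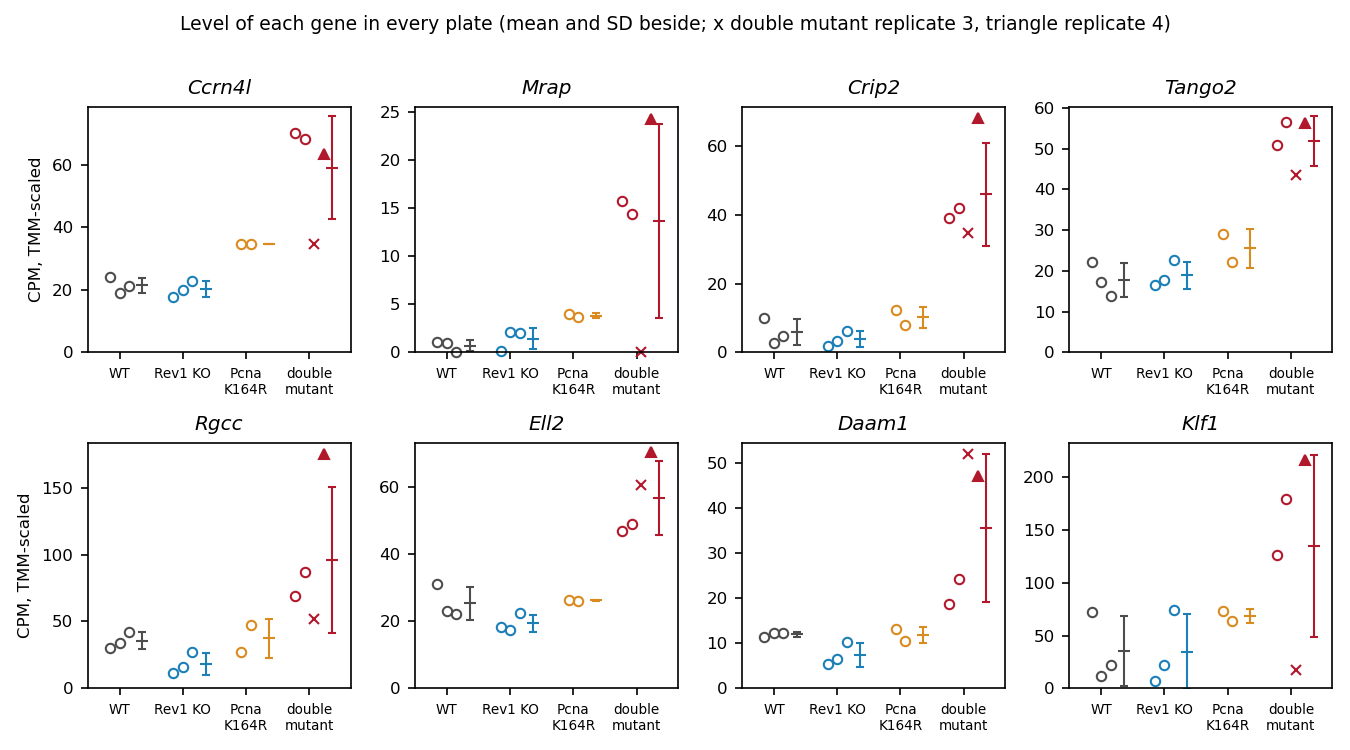
Level of each of the 7 genes and of Klf1 in every plate (TMM-scaled CPM, linear axis), by genotype, with the mean and SD beside the points. Crosses mark double mutant replicate 3, filled triangles replicate 4, and for 6 of the 7 genes all 4 double mutant plates lie above every WT plate on this scale. The genes were selected on this contrast, so that order is only a description, and its share over all genes was not counted. Unscaled, replicate 3 lies above every WT plate for 4 genes and below every WT plate for Ccrn4l and Rgcc.

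In the fit over 12 plates with genotype and sort session, log2 fold changes of the double mutant over WT were 1.56 ± 0.18 (SE) for Ccrn4l, 1.55 ± 0.22 for Tango2, 4.52 ± 0.55 for Mrap, 2.996 ± 0.43 for Crip2, 1.49 ± 0.31 for Daam1, 1.12 ± 0.23 for Ell2 and 1.74 ± 0.28 for Rgcc. This is the contrast of the selection, in which 4.21% of 12221 genes passed an adjusted p of 0.05 (1.8% higher and 2.41% lower), and nothing is read from the members' place among them. Without double mutant replicates 3 and 4 the values were 1.54, 1.28, 3.83, 2.03, 0.93, 0.64 and 1.37 in the same order of genes, so those of Ell2 and Daam1 shrank the most relative to their size. The single mutants lay closer to WT on the same scale. Against WT, the Rev1 knockout stood at 0.12 ± 0.20 for Ccrn4l, -0.92 ± 0.33 for Rgcc and -0.90 ± 0.36 for Daam1, and Pcna K164R at 0.55 ± 0.22 for Ccrn4l, 2.40 ± 0.65 for Mrap and 0.07 ± 0.28 for Ell2. These comparisons share the WT plates with the selection and carry no test.

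Pcna K164R against Rev1 knockout compares genotypes that were not part of that contrast. None of the 7 genes passed the test there, and neither did any other gene (0% of 12221 by edgeR's quasi-likelihood test, with 908 at an unadjusted p under 0.05 and 15 called by DESeq2). The differences were largest for Rgcc, at log2 1.45 ± 0.43, and Daam1, at 1.34 ± 0.47, both higher in Pcna K164R, with an edgeR adjusted p of 0.614. With no filter on low counts, Rgcc passed at an edgeR adjusted p of 0.0156. The other 5 ranged from 0.15 ± 0.32 (Tango2) to 1.09 ± 0.65 (Crip2), and the interval for Ccrn4l ran from -0.08 to 0.95. The genotypes share no sort session, so the comparison is not independent of the selection: it leans on WT and double mutant plates to set the sessions level.

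Within plates, 6 of the 7 genes rose in wells with a Klf1 UMI, and Mrap, the other, is given by its values only. Wells were thinned to 5000 UMIs each, and UMIs were summed per plate over wells with and without a Klf1 UMI, in the 7 plates with at least 10 wells of both kinds (double mutant replicates 1, 2 and 4, the 2 Pcna K164R plates, WT replicate 1 and Rev1 knockout replicate 3). This comparison is between wells of one plate, so a difference in level between plates does not enter it. It is not independent of the selection. Double mutant plates held more Klf1-positive wells, so genes high in such wells could be favoured by the selection. The shares over all genes, here and in the Klf1 comparisons below, do not allow for this. By edgeR's quasi-likelihood test with plate as a block, 6 of 6 members other than Mrap passed as higher, against 22.3% of the 7089 genes tested (24% passed as lower). Mrap had enough counts for the fit only through the double mutant plates that chose it, so it is not counted.

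Ccrn4l was at 77.3 CPM in Klf1-positive and 9.46 CPM in Klf1-negative wells of WT replicate 1, at 54.5 and 18.5 CPM in the Rev1 knockout plate, at 91.4 and 19.3 and at 54.5 and 27.8 CPM in the Pcna K164R plates, and at 139 and 43.5, 154 and 41.7, and 97.1 and 39.1 CPM in the double mutant plates. It was higher in the Klf1-positive wells in 7 of 7 plates. Its log2 difference was 1.89 ± 0.20 (SE; edgeR adjusted p = 5.46e-09), close to that of Tango2 at 1.87 ± 0.21 (adjusted p = 1.33e-08).

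Crip2 was detected at 18.2 to 106 CPM in Klf1-positive wells and 1.09 to 17.4 CPM in Klf1-negative wells, higher in 7 of 7 plates, by log2 3.29 ± 0.32 (edgeR adjusted p = 1.23e-09). Mrap ranged from 0 to 69.7 CPM in Klf1-positive and from 0 to 8.70 CPM in Klf1-negative wells. It rests on few molecules: Mrap had no UMI in the Klf1-negative wells of 3 plates and none in either class of the Rev1 knockout plate, and was higher in the other 6.

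Rgcc ranged from 81.8 to 280 CPM in Klf1-positive wells and from 13.2 to 47.8 CPM in the others, without overlap between the classes (log2 2.74 ± 0.16, edgeR adjusted p = 2.03e-14). Ell2 likewise ranged from 51.4 to 158 CPM against 13.04 to 20.8 CPM (log2 2.70 ± 0.22, edgeR adjusted p = 2.92e-11). Daam1 was at 22.7 to 74.3 CPM against 5.05 to 34.8 CPM, higher in 7 of 7 plates (log2 2.03 ± 0.31, edgeR adjusted p = 3.52e-06). Ranked by log2 difference among 7089 genes, the 6 lay between place 56 (Crip2) and place 161 (Tango2).

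**Figure D2:**
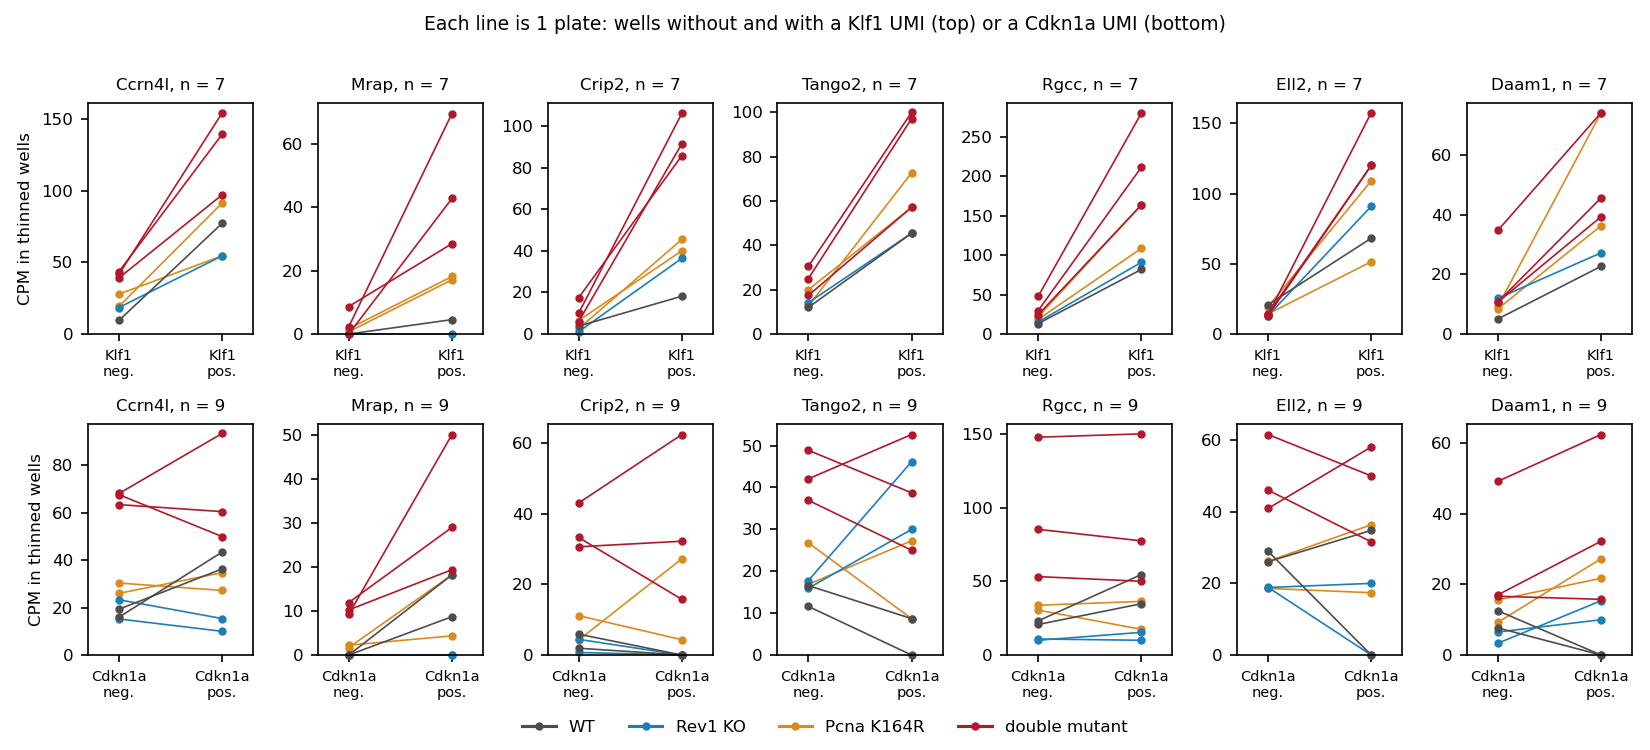
Level of each gene (CPM over wells thinned to 5000 UMIs) in wells without and with a Klf1 UMI (top, 7 plates) or a Cdkn1a UMI (bottom, 9 plates), each line 1 plate coloured by genotype. Lines rise in all 7 plates for 6 genes in the top panels, with Mrap at 0 in both classes of 1 plate, and run in both directions in the bottom panels for every gene except Mrap.

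The Rev1 knockout and Pcna K164R plates had no part in the selection. In those plates alone (3 plates, a subset chosen after seeing the data), 6 of 6 members with enough counts rose in Klf1-positive wells, against 10.8% of 7816 genes. Log2 differences ran from 1.73 ± 0.39 for Ccrn4l (edgeR adjusted p = 0.00121) to 3.46 ± 0.76 for Crip2 (edgeR adjusted p = 0.000938), and Mrap had too few counts to be tested. Each of the 6 kept its call in every one of the 18 or 19 alternatives in which it could be tested.

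Klf1-positive wells differed from the others in more than these genes. Of 17 erythroid markers tested, 17 rose (median log2 difference 3.55 against -0.01 over all genes). Of 3 markers of mature red cells, 3 rose (median 4.67), and 5 of 6 macrophage markers rose (median 1.13). Kit, Ly6a, Cd48 and Ptprc fell, 4 of 4, and 6 of 8 stem cell markers fell. The part of these in the members' difference was not tested. The genes with the smallest p were Mt2, a metallothionein (4.08 ± 0.12), Cpox, an enzyme of heme synthesis (3.52 ± 0.11), Blvrb, Rhag and Ermap among those that rose, and Cma1, Eltd1, Ifitm3, H2afy and Tpsb2 among those that fell. Before thinning, Klf1-positive wells were also deeper in 7 of 7 plates, for example with a median of 28562.5 against 14800 UMIs in WT replicate 1, and the part of this depth in the result was not tested beyond the thinning.

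Wells with a Cdkn1a UMI gave another answer. The comparison used the 9 plates with at least 10 wells of both kinds. Mrap is again not counted. None of the other members passed the edgeR test as higher or lower, where 1.67% of 7882 genes passed as higher. None of them had an unadjusted p under 0.05 in that test. Ccrn4l differed by log2 0.21 ± 0.23 (95% interval -0.24 to 0.65), Tango2 by -0.05 ± 0.29 (-0.61 to 0.51), Rgcc by -0.03 ± 0.21 (-0.45 to 0.39) and Ell2 by -0.09 ± 0.27 (-0.62 to 0.44). The highest of these upper ends is 0.65, while the Klf1 differences of the same genes were 1.87 or more. Crip2, at -0.18 ± 0.45, and Daam1, at 0.42 ± 0.40, were measured less precisely.

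Mrap, with most of its UMIs in the double mutant, differed by log2 1.79 ± 0.66 in Cdkn1a-positive wells (95% interval 0.49 to 3.09). It missed the threshold by edgeR (unadjusted p = 0.0102, adjusted p = 0.253) and was called by DESeq2 (adjusted p = 0.0129). It was higher in 7 of 9 plates and rested on 0 UMIs in the negative wells of 4 plates.

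Mast cell genes moved with Cdkn1a. Prkcb, Hdc, Tph1, Tpsab1 and Il1rl1 had the smallest p among genes that rose, and 6 of 6 mast cell and basophil markers tested rose (median log2 difference 4.04). Without wells that held at least 3 UMIs of those markers, none of the members counted above passed and 32 genes did by edgeR. Of 19 p53 targets other than Cdkn1a, 2 rose, Ccng1 (0.80) and Trp53inp1 (1.34), and 0 of 16 erythroid markers passed (median 0.16). Of the markers of mature red cells 1 of 3 rose (median 1.93), and of the macrophage markers 5 of 6 (median 1.36).

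The difference between the associations was tested directly, with wells split by both genes in 11 plates. For each of the 6 members that could be tested, the Klf1 difference exceeded the Cdkn1a difference. In plates other than the double mutant, fewer of them had enough counts for this fit. Some may thus have entered only through the plates that chose them. Their count is therefore not weighed against the 18.3% of 5936 genes that passed in that direction. The excess was log2 1.71 ± 0.29 for Ccrn4l, 1.93 ± 0.35 for Tango2, 3.71 ± 0.49 for Crip2, 2.89 ± 0.26 for Rgcc, 2.65 ± 0.34 for Ell2 and 1.58 ± 0.45 for Daam1, with edgeR adjusted p from 6.54e-14 (Rgcc) to 0.00379 (Daam1). Ccrn4l missed the threshold in the Rev1 knockout and Pcna K164R plates alone (1.35, edgeR adjusted p = 0.119), and Daam1 in the double mutant plates alone (1.39, edgeR adjusted p = 0.0787).

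**Figure D3:**
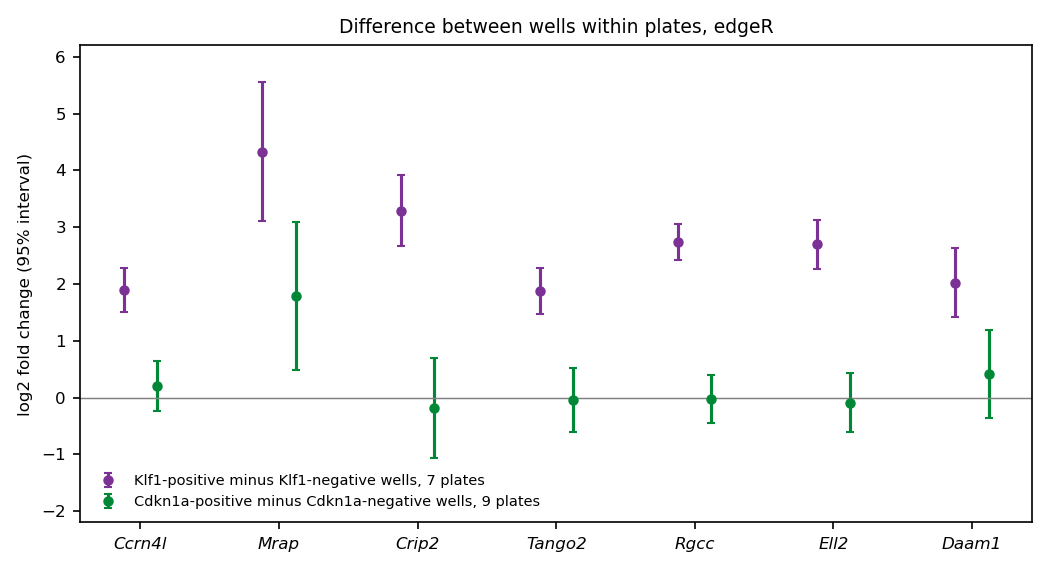
Log2 difference of each gene between Klf1-positive and Klf1-negative wells and between Cdkn1a-positive and Cdkn1a-negative wells, with 95% intervals. The Klf1 intervals lie at or above 1.42 for the 6 genes other than Mrap, which is drawn as a value with few molecules, and the Cdkn1a intervals include 0 for every gene except Mrap.

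The double mutant plates held more Klf1-positive wells. Klf1 was detected in 20.1%, 29.4% and 43.2% of thinned wells in double mutant replicates 1, 2 and 4 (exact 95% intervals 15.9 to 24.9, 23.7 to 35.6 and 32.2 to 54.7%), in 12.2%, 3.21% and 5% in WT, in 1.01%, 3.63% and 10.7% in the Rev1 knockout and in 11.1% and 8.49% in Pcna K164R. Cdkn1a was detected in 23.2%, 26.1% and 19.8% of wells in those double mutant plates and in 4.29 to 14.6% in the others. Intervals cover counting error only. Of 155 wells with UMIs of 3 or more of the 7 genes, 122 were Klf1-positive, out of 318 Klf1-positive wells among 2635. This sum over plates mixes the difference between genotypes with that between wells. By plate it was 39 of 45, 36 of 41 and 20 of 23 in double mutant replicates 1, 2 and 4. In the WT plates it was 6 of 10, 3 of 6 and 1 of 3, and in Pcna K164R 9 of 14 and 4 of 6. In Rev1 knockout replicates 2 and 3 it was 2 of 2 and 2 of 5, and replicate 1 had no such well.

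In the double mutant, Klf1-positive wells held a large part of the members' UMIs. In replicate 1, where 20.1% of wells were Klf1-positive, they held 88.5% of 26 Mrap UMIs, 74.3% of 70 Ell2 UMIs, 72.9% of 48 Crip2 UMIs and 62.8% of 86 Rgcc UMIs. For Daam1 (48.1% of 27), Tango2 (45.2% of 73) and Ccrn4l (44.7% of 103) the shares were lower in that plate. In replicate 2, where 29.4% of wells were Klf1-positive, the shares were 64% for Daam1, 61.8% for Tango2 and 60.7% for Ccrn4l, beside 77.8% for Ell2 and 86.5% for Crip2. The exact 95% intervals of Ell2 and Ccrn4l did not overlap in replicate 1 (62.4 to 84% and 34.9 to 54.8%) and overlapped in replicate 2 (64.4 to 88% and 49.7 to 70.9%) and replicate 4 (67.6 to 97.3% and 44.3 to 82.8%). These intervals take each UMI as independent, although some wells held several: in replicate 1 the 103 Ccrn4l UMIs lay in 90 wells. They leave out the spread between wells and are no test of a difference between the 2 genes.

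Klf1-positive wells also held more of the members per well in the double mutant, an order by genotype that restates the selection. Of the 7 genes, a Klf1-positive well showed 2.79, 2.70 and 2.54 on average in double mutant replicates 1, 2 and 4, against 1.295 in WT replicate 1, 1.27 in Rev1 knockout replicate 3 and 1.66 and 1.64 in Pcna K164R. Klf1-negative wells followed the same order by genotype, at 0.607, 0.560 and 0.804 in those double mutant plates and 0.293 to 0.430 in the others. Klf1 itself was at 2.48, 2.50 and 2.00 UMIs per positive well in the double mutant and at 1.82 to 2.36 in the other plates. Whether the Klf1 difference of a member was larger in the double mutant than in the other plates was tested as an added comparison. Mrap is again not counted. By edgeR none of the other members passed, where 0.0141% of 7089 genes passed as higher. Ell2 came nearest (log2 1.20 ± 0.40, edgeR adjusted p = 0.319), and the others apart from Mrap ranged from -0.52 (Daam1) to 0.28 (Crip2).

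**Figure D4:**
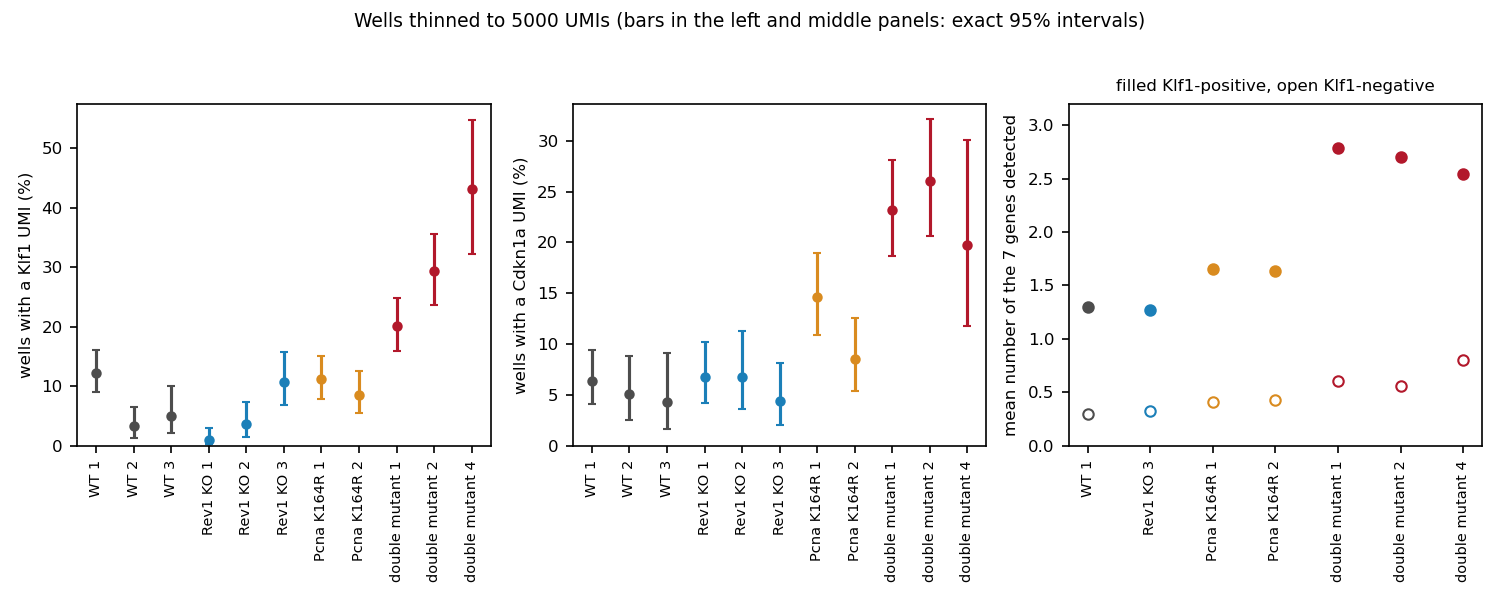
Share of thinned wells with a Klf1 UMI (left) and a Cdkn1a UMI (middle) per plate with exact 95% intervals, and mean number of the 7 genes detected per well (right) in Klf1-positive (filled) and Klf1-negative (open) wells. Double mutant plates have the highest values in each panel, at 20.1 to 43.2% of wells for Klf1. The 7 genes were selected as higher in the double mutant, so the order by genotype in the right panel is only a description.

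Away from Klf1-positive wells the 7 genes parted. In Klf1-negative wells Ccrn4l was at 43.5, 41.7 and 39.1 CPM in double mutant replicates 1, 2 and 4 and at 9.46, 16.1 and 13.5 CPM in WT, a ratio of means of 3.18 beside 3.76 over all thinned wells. Ell2 went the other way there, at 13.7, 14.3 and 13.04 CPM in the double mutant and 20.8, 24.6 and 37.6 CPM in WT, a ratio of 0.494 beside 1.64 over all wells. The double mutant plates lay above all WT plates for Ccrn4l and below all of them for Ell2.

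For Crip2 and Tango2, too, every double mutant plate lay above every WT plate in Klf1-negative wells, with ratios of 4.90 and 2.05. Wells with no UMI of any erythroid marker are a stricter class, in which the ratio of Ccrn4l was 2.88 with no overlap, while that of Tango2 was 1.21 with 1 of 3 double mutant plates above all WT plates. Crip2 had 7 double mutant UMIs and 2 WT UMIs left in that class. Rgcc (1.58) and Daam1 (1.97) overlapped with WT in Klf1-negative wells, with 1 of 3 double mutant plates above all WT plates for each, and that plate was replicate 4. Without replicate 4 the ratios in Klf1-negative wells were 1.26 for Rgcc, 1.13 for Daam1, 3.51 for Crip2, 2.34 for Tango2, 3.27 for Ccrn4l and 0.506 for Ell2. Mrap had 5 double mutant UMIs and 1 WT UMI left in these wells, too few for an order. With all UMIs of the same wells the ratios were 2.03 for Ccrn4l, 7.40 for Crip2, 1.88 for Tango2 and 0.844 for Ell2, whose plates then overlapped. That of Crip2 was 4.42 without replicate 4, and those of Daam1, 1.37, and Rgcc, 1.60, were 0.772 and 1.06. These are levels by genotype and, like those of the plates, a description.

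**Figure D5:**
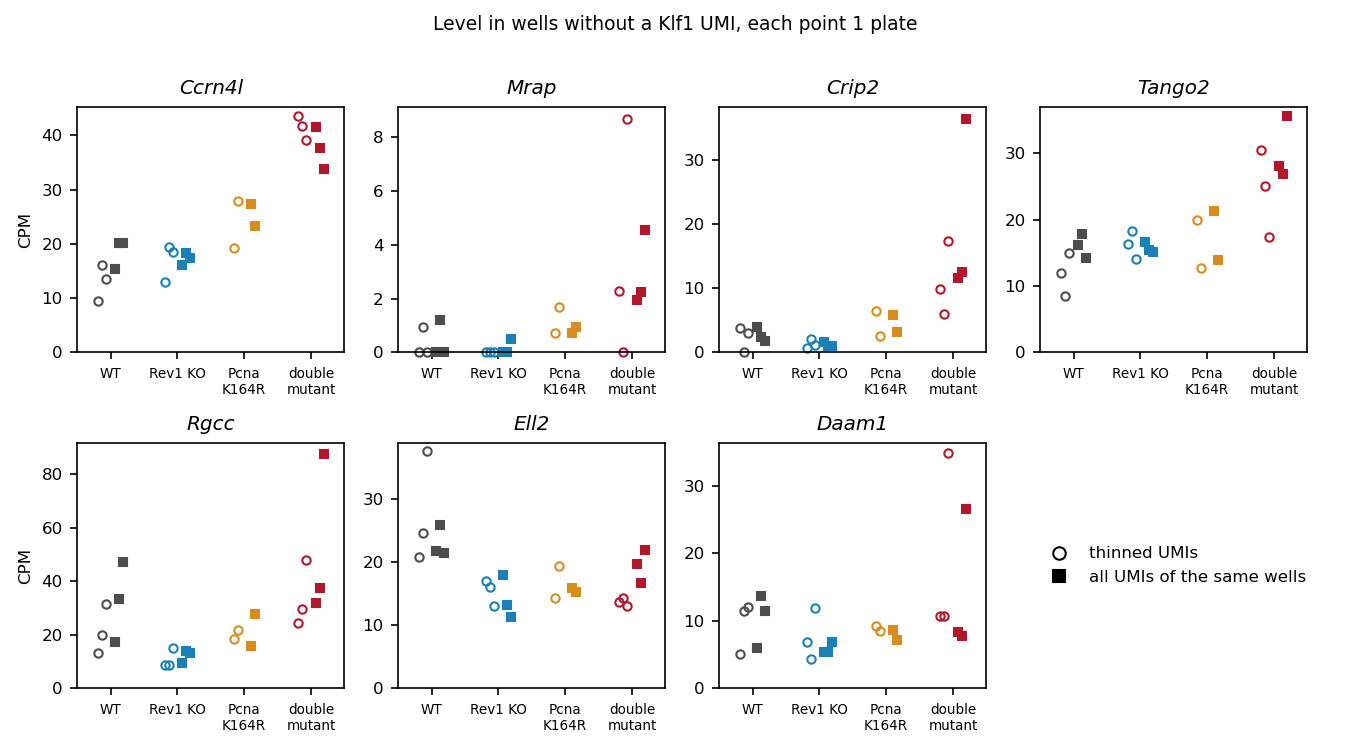
Level of each gene (CPM) in wells without a Klf1 UMI, each point 1 plate by genotype, from thinned UMIs (open circles) and from all UMIs of the same wells (filled squares). Ccrn4l stays higher in the double mutant (39.1 to 43.5 CPM thinned) than in WT, and Ell2 does not.

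Lists of partners were counted in the same Klf1 comparison, where 22.3% of all genes passed as higher and 24% as lower. Of 9 LIM domain proteins tested beside Crip2, 9 fell and none rose, led by Tes (-2.92), Zyx (-1.35), Pxn (-1.19) and Lmo2 (-0.52). Of 12 formins and their partners beside Daam1, 7 fell and none rose, led by Fmnl1 (-1.89) and Fmnl2 (-1.71). Of 7 circadian clock genes 2 fell, Cry1 (-2.02) and Csnk1e (-1.13), and of 17 deadenylase genes Pde12 rose (0.51) while Pan3 (-0.76) and Cnot6l (-0.81) fell.

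Super elongation complex and P-TEFb genes, the partners of Ell2, split: of 16 tested, 2 rose, with Supt4a (0.70) first, and 3 fell, led by Aff3 (-3.20) and Aff4 (-1.23). Of 13 mitotic kinases and partners of Rgcc, Ccna2 (cyclin A2) rose by 0.83, and Cdk1 (-0.65), Wee1 (-0.76) and Smad3 (-1.37) fell. The neighbours of Tango2 on chromosome 16 gave 4 that rose of 12 tested, among them Txnrd2 (1.77), and 2 that fell, Zdhhc8 (-2.36) and Dgcr2 (-0.78). No melanocortin receptor or partner of Mrap had enough counts in these wells. Of 15 p53 targets, 5 rose, including Gadd45a (2.29), Ccng1 (0.74) and Rps27l (0.52), and 2 fell, with Sesn1 (-1.47) first.

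The genes closest in pattern were taken by a fixed rule, on 2 scales. Across wells within plates (mean Pearson r over 11 plates, and over 7 for Mrap), the closest gene was Cited4 for Ccrn4l (0.28), Crip2 (0.33) and Daam1 (0.16), Mt2 for Rgcc (0.38) and Tango2 (0.21), Mt1 for Ell2 (0.30), and Cpox for Mrap (0.24). Wells of a plate share their library, and r was low throughout. Across the 12 plates (Pearson r of log2 CPM), the closest were Mrpl35 (0.987) and Hspe1 (0.979) for Ccrn4l, Tmem14c (0.971) and Tfrc (0.966) for Crip2, Mrpl16 (0.969) for Tango2, C230052I12Rik (0.976) and Epb4.9 (0.965) for Mrap, Sgpp1 (0.960) for Rgcc, Bcl2l15 (0.958) for Ell2 and Meiob (0.958) for Daam1. Members ranked among each other's nearest, Crip2 (0.957) for Ell2 and Ell2 (0.947) for Daam1. On the plate scale, r with Cdkn1a was higher than r with Klf1 for Ccrn4l (0.923 against 0.809), Crip2 (0.919 against 0.764) and Tango2 (0.928 against 0.716). The same held for Ell2 (0.866 against 0.595) and Daam1 (0.729 against 0.460), but not for Mrap (0.593 against 0.859) or Rgcc (0.705 against 0.709). The double mutant plates stand apart for the members, so these plate values describe that shared contrast. They include the shallow double mutant replicate 3, read at 17.4 CPM for Klf1 from 2 UMIs and at 60.8 CPM for Cdkn1a from 7 UMIs. The part of that plate in the order of the r values was not tested.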

How the data were processed

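The authors deposited 3 tables per plate: UMI counts and read counts per gene and well, which are whole-number counts, and estimated counts of transcripts. By their values, the estimated counts equal the UMI counts at low values and lie slightly above them at high ones; the authors' correction behind them was used only as an alternative. BWA 0.7.15 and mm10 (GRCm38) are named, without their roles, per the submitters' processing notes. The sources used here do not give the counting tool, the strand setting or the gene models. The series text speaks of 96-well plates while each table has 384 wells. UMI counts of wells with at least 1000 UMIs outside spike-ins were summed per plate (1520 of 4608 wells left out), scaled by TMM and fitted in edgeR 4.0.16 (R 4.3.3) by the quasi-likelihood test with genotype and sort session (3 sort dates). P-values were Benjamini-Hochberg adjusted over all genes tested, with a threshold of 0.05. DESeq2 1.42.0 was an alternative.

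For the comparisons of wells, wells were thinned to 5000 UMIs (2644 wells deep enough), summed per plate and class, and fitted with plate as a block; plates and not wells were the replicates. No doublet caller was run on these singly sorted cells. Members and gene lists were chosen with earlier results of these data known. The text names the 7 members, listed partners past the threshold (at most 4 per list by p), the 5 genes of smallest p per direction and the closest genes by correlation. Scripts were tested on simulated data. Well barcodes 1 to 384 are the same set in every plate by design. Some listed genes are not reported here.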

Additional observations from a re-analysis of the deposited data

How the results depend on the processing

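No paired analysis was possible because replicate numbers were given in accession order and do not pair plates; the comparisons of wells hold the plate as a block. Counts of all genes called depended on the setting. For the double mutant against WT (514), they were 1430 by DESeq2, 1199 with no filter, 1 with read counts, 0 with flow cell in place of session (5 flow cells, none with plates of both WT and the double mutant), 1 in session 1 alone, 1339 in session 3 alone, 72 without double mutant replicates 3 and 4, and 12 to 2074 leaving out 1 plate (12 without double mutant replicate 4, 219, 48 and 2031 without its replicates 1, 2 and 3, 81 and 116 without WT replicates 2 and 3, 2074, 342 and 266 without Rev1 knockout replicates 1, 2 and 3). Pcna K164R against Rev1 knockout (0) gave 15, 258 with no filter (1 member) and 0 to 3 leaving out 1 plate. Klf1-positive wells (3278) gave 863 and 5010 thinned to 2000 and 10000 UMIs, 7342 with no thinning, 1785 in the Rev1 knockout and Pcna K164R plates alone, and 2739 to 3531 leaving out 1 plate. Cdkn1a-positive wells (153) gave 61 thinned to 2000 UMIs, 263 with no filter, 70 by panel, 13 in double mutant plates alone, 28 with at least 2 UMIs, 32 without mast cell marker wells, 95 to 188 leaving out 1 plate (100 and 95 without Pcna K164R replicates 1 and 2), and 1 member by DESeq2. Klf1 against Cdkn1a (2391) gave 436 and 3842 thinned to 2000 and 10000 UMIs, 6233 with no thinning, 1258 in double mutant plates alone, 1328 in the other plates, 1103 in the Rev1 knockout and Pcna K164R plates alone, 1138 with at least 2 UMIs and 1892 to 2431 leaving out 1 plate. Members higher there were 1 of 1 tested at 2000 UMIs, 3 of 3 in plates other than the double mutant, 2 of 3 in the Rev1 knockout and Pcna K164R plates, 3 of 3 with at least 2 UMIs and 5 to 6 leaving out 1 plate. The shares of all genes that passed as higher in those settings are not given, so these member counts are not weighed. The added comparison of the Klf1 difference (6) gave 1 by DESeq2, 24 with no filter and 2 to 14 leaving out 1 plate, with 0 members throughout. The cause of these shifts was not tested, apart from fewer genes tested at lower depth. Of the erythroid markers and p53 targets, 11 of 18 and 5 of 24 were called higher in the double mutant against WT, and 0 of either without double mutant replicate 4. The Rev1 knockout and Pcna K164R subset, the 2 UMI class, the mast cell exclusion, the fit without replicates 3 and 4, the ratios without replicate 4, the wells with no erythroid marker UMI and the added comparison were chosen after seeing the data.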
